A study of Mus musculus with 24 samples.

Results

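Livers of mice with diet-induced steatohepatitis that carried the label of a hepatocyte PPARγ knockout and also received rosiglitazone were compared with healthy livers on a low-fat diet. The comparison asked which of the disease changes in gene expression are still present when knockout and drug are combined. Libraries were chosen by their labels alone, and read counts of all genes were joined by gene identifier. This gave 9 of the 24 libraries of the series: 5 of treated mice labelled knockout and 4 low-fat controls.

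PPARγ is a nuclear receptor that is activated by fatty acids and switches on genes of fat uptake and storage. It is abundant in fat tissue and scarce in healthy hepatocytes, and it rises in fatty liver. Rosiglitazone is a thiazolidinedione drug that activates it throughout the body. In steatohepatitis, liver fat is joined by inflammation, cell damage and scarring made by activated stellate cells, and a band of bile duct-like cells often expands around the portal tracts.

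RNA came from whole liver, 1 library per mouse, of adult mice whose age is not given in the sources used here. The group labelled LF C (LF_C below, n = 4) held control-genotype mice on the diet named LFCF, without treatment and labelled healthy; how long they were on that diet is not given in the sources used here. The group labelled HF/TZD KO (HF_TZD_KO, n = 5) held mice kept for 34 weeks on the diet named HFCF. Their hepatocyte-specific knockout was induced after 24 weeks and so lasted 10 weeks. Rosiglitazone maleate was in their diet for the last 8 weeks. The untreated disease group, labelled HF C (HF_C, n = 5), held untreated control-genotype mice after 34 weeks on the HFCF diet and set what is called a disease change here. Diet, knockout label and drug all differ between HF_TZD_KO and LF_C, so their effects cannot be told apart in that comparison. Knockout label and drug likewise cannot be told apart between HF_TZD_KO and HF_C. The means of inducing the knockout, and thus the allele that both genotypes may share, are not given in the sources used here.

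The libraries held 22.6 to 25.5 M counted reads in LF_C, 26.4 to 28.7 M in HF_C and 19.5 to 22.9 M in HF_TZD_KO. Levels are CPM, read counts scaled to a common library depth by trimmed means, and fold changes are on the log2 scale. The transcript of albumin, the main protein that hepatocytes secrete, took 5.41 to 6.95% of reads in LF_C, 3.51 to 4.26% in HF_C and 5.79 to 7.20% in HF_TZD_KO. Hepatocyte genes dominated every library, as the liver label says. One treated library stood apart. On the first principal component of all 24 libraries, which carried 43.0% of the variance, HF_TZD_KO 5 scored -57.7 and the other 4 of its group -4.26 to 17.6. LF_C scored -107.7 to -63.6, with LF_C 4 the lowest, and HF_C 7.67 to 45.9. HF_TZD_KO 5 thus lay nearer to the healthy livers than to its own group. Results below are given with it and, where it matters, without it.

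The targeted gene went against the label. The libraries labelled knockout held 56.2, 39.0, 62.1, 44.6 and 31.6 CPM of Pparg (chromosome 6, 115361221 to 115490401, GRCm38/mm10). The healthy livers of LF_C held 16.4, 18.3, 16.7 and 10.0 CPM, and HF_C held 32.8, 33.7, 35.3, 28.2 and 31.9 CPM. Every library of HF_TZD_KO was above every library of LF_C, and 4 of 5 were above all of HF_C. The change against LF_C was 1.60 ± 0.22 (log2, SE; adjusted p = 0.00187, edgeR quasi-likelihood test), and against HF_C 0.53 ± 0.15 (adjusted p = 0.0541, edgeR). The call against HF_C was made in some alternatives, with an adjusted p of 0.0097 in edgeR without HF_TZD_KO 5. Gene counts include exons that a deletion may leave in place and transcripts of other liver cells, so they do not measure the deleted part. The group is called the libraries labelled knockout for this reason.

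Of 14361 genes tested between HF_TZD_KO and LF_C, 2189 passed at an adjusted p under 0.05 (15.2%, edgeR). These were 1388 higher (9.67%) and 801 lower (5.58%). A change of at least 1 on the log2 scale was seen in 1003 of the higher and 85 of the lower genes. With library totals as the only scaling the calls were 1406 higher and 382 lower. Without HF_TZD_KO 5 the calls rose to 2182 higher and 1277 lower, while leaving out any other treated library gave 1112 to 1252 calls in all. In HF_C against the same 4 LF_C libraries, 6003 of 14772 genes passed (40.6%), 3168 higher and 2835 lower. With library totals only, that split became 5309 and 886.

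Among 14221 genes tested in all 3 comparisons, 5771 were disease changes, that is, passed in HF_C against LF_C. In HF_TZD_KO, 1890 of them (32.7%) again passed against LF_C in the same direction. These were 1287 of the 2971 genes higher in disease (43.3%) and 603 of the 2800 lower ones (21.5%). Another 718 (12.4%) no longer passed against LF_C and passed against HF_C towards the healthy level, 251 from above and 467 from below. A further 3159 (54.7%) passed neither test, which does not show that they were at either level, and 4 passed in the opposite direction. The median change of the genes higher in disease was 1.17 in HF_C and 0.84 in HF_TZD_KO, and that of the lower genes -0.46 and -0.27. HF_C and HF_TZD_KO share their LF_C libraries in these values, so the values stand side by side without a test between them. The genes were also picked for their change in HF_C, which by itself favours the larger median there. The smaller median in HF_TZD_KO therefore does not measure a recovery. The returned genes likewise rest on the same HF_C libraries in both of their tests. Without HF_TZD_KO 5, 2954 of 5763 disease changes (51.3%) remained. Without LF_C 4, 1319 of 5928 (22.3%) did.

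**Figure D1:**
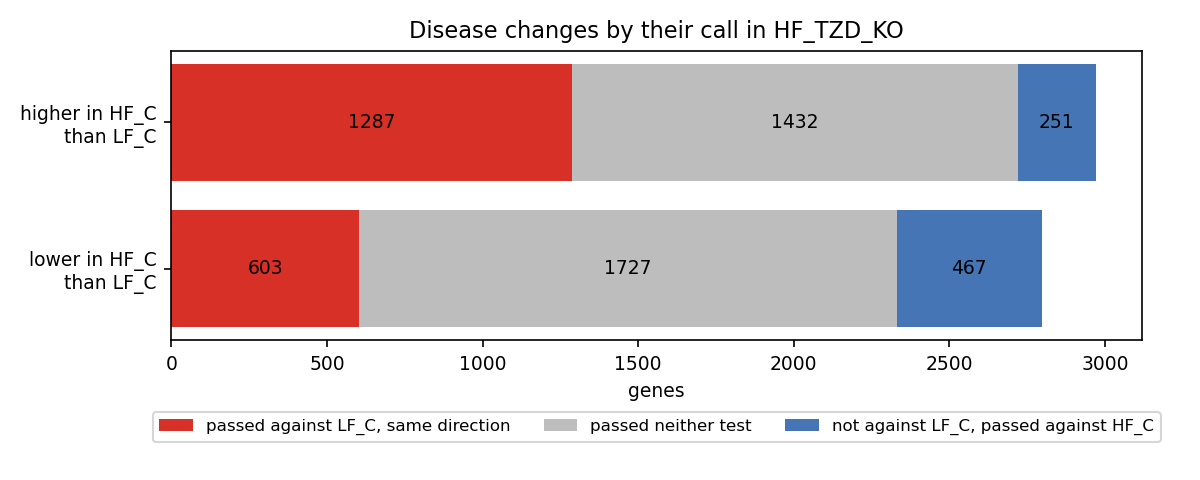
Number of disease changes (horizontal axis) that were higher or lower in HF_C than in LF_C, split by their call in HF_TZD_KO. Of the higher genes 1287 passed against LF_C again and 251 returned, and of the lower genes 603 and 467; the 4 genes in the opposite direction are not drawn.

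Scar tissue genes were the list with the most members among the disease changes that remained. Of 30 extracellular matrix and fibrosis genes tested, 27 were higher in HF_TZD_KO than in LF_C and none was lower, with a median change of 1.92 against -0.02 over all genes tested. In HF_C the same list had 29 higher and a median of 2.502. Between HF_TZD_KO and HF_C, where 7.48% of all genes passed (4.08% higher, 3.40% lower), 10 of the 30 were lower and none higher. Without HF_TZD_KO 5, 29 of 30 were higher than in LF_C, and without LF_C 4 it was 26.

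Col1a1 (chromosome 11, 94936224 to 94953042), which encodes part of the main collagen fibre of liver scars, stood at 17.8, 20.8, 16.6 and 11.5 CPM in LF_C. It reached 133, 180, 228, 195 and 184 CPM in HF_C and 107, 104, 94.7, 84.0 and 30.2 CPM in HF_TZD_KO. The 3 groups did not overlap, with the treated libraries between the others and HF_TZD_KO 5 closest to the healthy livers. The change against LF_C was 2.32 ± 0.32 (adjusted p = 0.00196, edgeR) and against HF_C -1.14 ± 0.26 (adjusted p = 0.0222, edgeR). The second call was lost when HF_C 3, HF_C 4 or HF_C 5 was left out (adjusted p = 0.0568 to 0.061, edgeR) and with replicate numbers as a block (0.0573).

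Timp1, an inhibitor of the enzymes that break down matrix, followed the same order. It stood at 0.149 to 0.645 CPM in the 4 LF_C libraries, 5.14 to 8.14 CPM in HF_C and 1.69 to 3.25 CPM in HF_TZD_KO, again without overlap. Groups lay apart, with HF_TZD_KO above LF_C, for 6.94% of all genes tested, and above or below HF_C for 4.64% and 4.36%. Timp1 was higher than in LF_C by 2.49 ± 0.40 (adjusted p = 0.00311, edgeR) and differed from HF_C by -1.34 ± 0.19 (adjusted p = 0.00227, edgeR). Col6a3, a chain of the collagen of the cell surface, stood at 84.3, 89.9, 78.2, 87.4 and 30.9 CPM in HF_TZD_KO against 16.8, 22.9, 18.3 and 17.2 CPM in LF_C. It was higher by 1.97 ± 0.27 (adjusted p = 0.00187, edgeR), and HF_TZD_KO 5 was far below the other treated libraries while still above every healthy one. Dpt, a small matrix protein that binds decorin, stood at 31.2, 42.5, 29.8, 37.0 and 9.56 CPM against 5.28, 6.02, 4.08 and 2.28 CPM and was higher by 2.76 ± 0.40 (adjusted p = 0.00224, edgeR). Neither Col6a3 (adjusted p = 0.122) nor Dpt (adjusted p = 0.658) passed in edgeR against HF_C.

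Markers of the stellate cell, the vitamin A-storing cell that makes this matrix, were tested as a list of 16. In HF_TZD_KO 11 were higher than in LF_C and none lower, with a median of 0.90, and in HF_C 13 were higher with a median of 0.81. Without LF_C 4, 6 of the 16 were higher in HF_TZD_KO. None of the 16 passed between HF_TZD_KO and HF_C in edgeR, where 1 was higher and none lower at an unadjusted p under 0.05, and DESeq2 called none. Lrat, which stores vitamin A as esters, stood at 57.4, 62.1, 55.7, 63.9 and 35.3 CPM in HF_TZD_KO against 24.9 to 31.2 CPM in LF_C. Pdgfrb, the receptor for a growth factor that activates stellate cells, stood at 56.6, 67.6, 48.8, 48.3 and 23.2 CPM against 12.3 to 20.8 CPM. Both rose without overlap, by 1.01 ± 0.16 (Lrat, adjusted p = 0.00281, edgeR) and 1.58 ± 0.26 (Pdgfrb, adjusted p = 0.00331, edgeR). Acta2, the smooth muscle actin of myofibroblasts, stood at 5.59, 6.20, 2.58, 3.91 and 4.60 CPM against 1.59 to 3.48 CPM and did not pass (0.93 ± 0.30, adjusted p = 0.0569, edgeR). Acta2 passed as higher in 5 of 17 alternatives, among them DESeq2 (adjusted p = 0.0186). The summed level of the 16 markers was 289 to 378 CPM in LF_C, 538 to 693 in HF_C and 379 to 728 in HF_TZD_KO. In whole liver, more cells of a type and more RNA per cell cannot be told apart, and the part of the marker levels in the matrix genes was not tested.

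**Figure D2:**
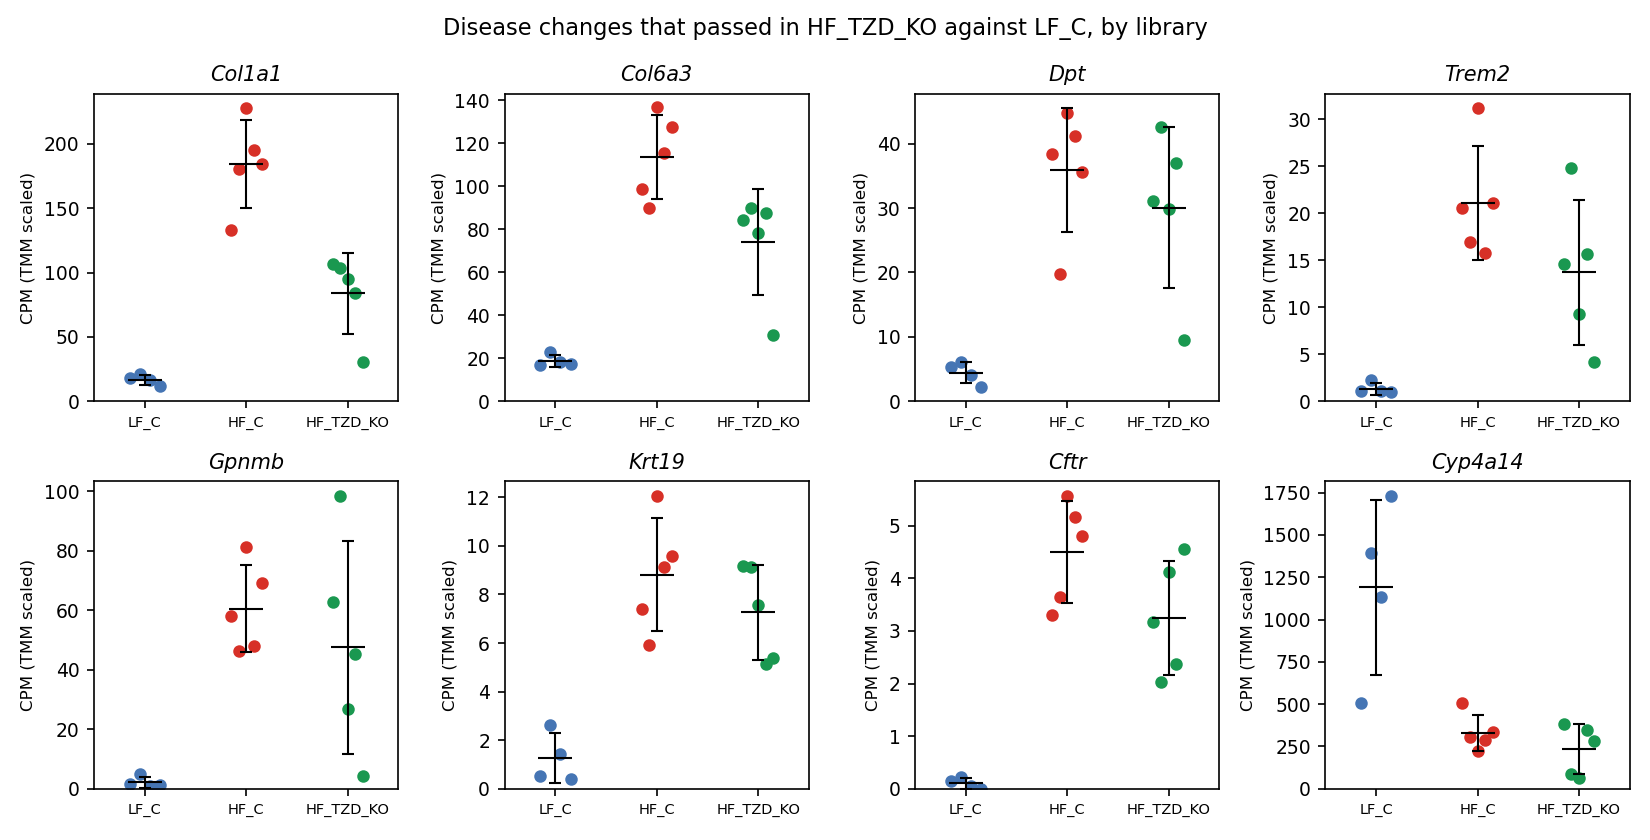
CPM on linear axes for 8 genes in each library of LF_C, HF_C and HF_TZD_KO, as points in replicate order from left to right, with the mean and SD of each group as lines. For all 8 genes but Gpnmb the treated libraries lie wholly on the disease side of LF_C; the lowest Gpnmb library, HF_TZD_KO 5 at 4.40 CPM, lies below the highest LF_C library at 4.95 CPM.

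Macrophage genes of the kind that enter diseased liver also stayed high. Of 22 recruited and lipid-associated macrophage genes, 13 were higher in HF_TZD_KO than in LF_C and none lower, with a median of 1.38. In HF_C 21 were higher, with a median of 2.02. Without HF_TZD_KO 5, 20 of the 22 were higher in HF_TZD_KO, and without LF_C 4 it was 11, with a median of 1.22. Trem2, a lipid receptor of scar-associated macrophages, stood at 1.07, 2.28, 1.05 and 0.942 CPM in LF_C, but 14.6, 24.8, 9.32, 15.7 and 4.19 CPM in HF_TZD_KO. It was higher by 3.34 ± 0.48 (adjusted p = 0.00225, edgeR) without overlap. Gpnmb, a membrane glycoprotein of fat-laden macrophages, stood at 62.8, 98.4, 26.9, 45.2 and 4.40 CPM against 1.01 to 4.95 CPM and rose by 4.40 ± 0.78 (adjusted p = 0.00472, edgeR). The treated libraries spread widely for Gpnmb, and the lowest overlapped LF_C.

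Spp1, the secreted phosphoprotein osteopontin, stood at 506, 609, 495, 395 and 171 CPM in HF_TZD_KO against 43.6, 76.4, 54.1 and 32.2 CPM in LF_C. Lpl, the lipase that frees fatty acids from lipoproteins, stood at 184, 265, 132, 184 and 74.6 CPM against 14.5 to 28.1 CPM. Both were called at an adjusted p of 0.00095 (edgeR), with changes of 3.07 ± 0.36 for Spp1 and 2.89 ± 0.33 for Lpl. Atp6v0d2, a subunit of the proton pump that acidifies lysosomes, was higher by 2.83 ± 0.32 (adjusted p = 0.00095, edgeR), at 7.46 to 18.8 CPM against 1.38 to 2.28 CPM. None of the 5 macrophage genes named here passed against HF_C (edgeR, adjusted p = 0.162 to 0.728). The list of 22 had 2 lower and none higher than in HF_C in edgeR, with a median of -0.50. At an unadjusted p under 0.05 (edgeR), 10 were lower and none higher, and DESeq2 called 5 lower. The summed level of the 22 genes was 651 to 918 CPM in LF_C, 2085 to 3250 in HF_C and 984 to 2358 in HF_TZD_KO.

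Resident macrophages, the Kupffer cells, were mixed. Of 17 of their genes, 2 were higher and 3 lower in HF_TZD_KO than in LF_C, and the list's median was 0.30. It was 0.016 without LF_C 4, with 1 higher and 2 lower, and without HF_TZD_KO 5 the calls were 4 higher and 3 lower. None passed against HF_C in edgeR, where none was higher and 2 were lower at an unadjusted p under 0.05, and DESeq2 called none. Cd163, the scavenger receptor for haemoglobin, stood at 28.8, 44.1, 32.2 and 13.9 CPM in LF_C, at 0.384 to 4.20 CPM in HF_C and at 2.61, 0.359, 3.56, 2.96 and 9.61 CPM in HF_TZD_KO. It fell by 2.98 ± 0.57 on the log2 scale (adjusted p = 0.00656, edgeR). Cd207, the lectin langerin, was one of the higher members, at 10.8, 19.1, 5.70, 22.6 and 5.32 CPM against 1.04 to 3.96 CPM in LF_C (2.25 ± 0.49, adjusted p = 0.0121, edgeR). Timd4, a receptor for dying cells that marks long-lived Kupffer cells, stood at 3.21, 0.854, 1.26, 7.50 and 3.73 CPM against 6.84 to 16.9 CPM and fell by 1.91 ± 0.49 (adjusted p = 0.0247, edgeR). Its groups overlapped in 1 library each, and the call held in 5 of 9 fits that left out 1 library. None of the 3 passed against HF_C in edgeR (adjusted p = 0.234 for Cd163, 0.782 for Cd207 and 0.614 for Timd4).

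Signals that draw in white cells were part of what remained. Of 17 cytokine, chemokine and adhesion genes, 9 were higher in HF_TZD_KO than in LF_C and none lower, with a median of 1.26; 16 of 19 were higher in HF_C. Without LF_C 4, 5 of 18 were higher in HF_TZD_KO. Ccl2, which attracts monocytes, stood at 3.62, 5.44, 3.89, 3.38 and 4.19 CPM in HF_TZD_KO, 5.86 to 13.1 CPM in HF_C and 0.793 to 1.85 CPM in LF_C. The groups did not overlap, and the change was 1.57 ± 0.29 against LF_C (adjusted p = 0.00604, edgeR) and -0.95 ± 0.23 against HF_C (adjusted p = 0.0279, edgeR). The second call was lost when HF_C 5 or HF_TZD_KO 1, 3 or 4 was left out (adjusted p = 0.0572 to 0.0708, edgeR). Ccl22, a chemokine of dendritic cells and macrophages, rose by 1.93 ± 0.29 (adjusted p = 0.00242, edgeR), from 0.545 to 0.726 CPM in LF_C up to 1.64 to 2.93 CPM. Icam1, to which white cells adhere, rose by 0.79 ± 0.14 (adjusted p = 0.00487, edgeR).

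Of 20 T, NK and B lymphocyte genes, 6 were higher and none lower than in LF_C, with a median of 1.00, and in HF_C 15 of 21 were higher. Cd8a, the co-receptor of killer T cells, stood at 0.818 to 5.12 CPM against 0.0969 to 0.571 CPM in LF_C and rose by 3.00 ± 0.62 (adjusted p = 0.00995, edgeR). Ltb, a cytokine of lymphocytes that organises lymphoid tissue, stood at 3.12 to 4.33 CPM against 0.436 to 1.74 CPM and rose by 1.63 ± 0.33 (adjusted p = 0.00843, edgeR).

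Ltf and Ngp, genes of neutrophil granules, were among the 6 highest changes named by size, from very low levels. Ltf was not on the fixed neutrophil list. All 6 of the list's tested genes were higher in HF_TZD_KO than in LF_C, with a median of 2.87, and 3 of the 6 were disease changes. In HF_C 3 of 5 were higher, with a median of 1.23, and none of 6 passed between HF_TZD_KO and HF_C in edgeR, where 4 were higher and 1 lower at an unadjusted p under 0.05 and DESeq2 called none. Without LF_C 4, 4 of 6 were higher. Another 3 of the 9 listed genes were too low to test.

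Ltf, the iron-binding lactoferrin of neutrophil granules, stood at 0, 0.172, 0.0439 and 0 CPM in LF_C, and HF_TZD_KO held 2.20, 2.25, 7.56, 6.65 and 6.29 CPM. Its share of reads was 89.7 times higher, from 485 against 5 reads (exact 95% interval 38.2 to 278, counting error only). In HF_C it stood at 0.172 to 0.670 CPM in 4 libraries and at 4.95 CPM in HF_C 2. Ngp, a protein of granules in immature neutrophils, stood at 2.84, 2.52, 8.60, 7.97 and 8.08 CPM against 7 reads in all of LF_C, a ratio of 77.1 (interval 37.2 to 193). S100a8 and S100a9, calcium-binding proteins that neutrophils hold in bulk, showed the same order. S100a8 stood at 2.52 to 8.82 CPM against 0.823 to 1.09 CPM and rose by 2.52 ± 0.39 (adjusted p = 0.00255, edgeR). S100a9 stood at 4.26 to 12.6 CPM against 0.644 to 1.20 CPM and rose by 3.22 ± 0.38 (adjusted p = 0.00098, edgeR). HF_TZD_KO 3, 4 and 5 were the highest for all 4 genes. HF_C 2 was far above the other HF_C libraries for Ltf, Ngp and S100a9, and without it Ltf and Ngp passed between HF_TZD_KO and HF_C (edgeR, 3.72, adjusted p = 0.00341, and 3.54, adjusted p = 0.00259).

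Bile duct genes remained almost whole. Of 13 cholangiocyte genes tested, 11 were higher than in LF_C and none lower, with a median of 2.38, against 12 of 14 and 2.76 in HF_C. None of 14 passed between HF_TZD_KO and HF_C in edgeR; 1 was higher and 1 lower at an unadjusted p under 0.05, and DESeq2 also called 1 of each. Krt19, a keratin of bile duct cells, stood at 9.17, 9.12, 7.56, 5.12 and 5.37 CPM in HF_TZD_KO and 5.91 to 12.1 CPM in HF_C against 0.397 to 2.62 CPM in LF_C. It rose by 2.51 ± 0.46 (adjusted p = 0.00535, edgeR) without overlap. Sox9, a transcription factor of duct and progenitor cells, stood at 14.9 to 25.9 CPM against 4.07 to 6.67 CPM and rose by 2.00 ± 0.20 (adjusted p = 0.00064, edgeR). Cftr, the chloride channel of the duct surface, stood at 3.16, 2.02, 4.11, 2.38 and 4.55 CPM, with 9 reads in all of LF_C, a ratio of 33.2 (interval 17.3 to 73.2). HF_TZD_KO 5, low for scar and macrophage genes, had the highest Cftr level of its group. Cldn7, a tight junction protein of epithelia, rose by 2.56 ± 0.32 (adjusted p = 0.0013, edgeR). The summed level of the 14 genes was 251 to 282 CPM in LF_C, 339 to 449 in HF_C and 367 to 460 in HF_TZD_KO.

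Other genes with the largest remaining increases were Mmp7, Scube3, Tbx1 and Lrtm2. Mmp7, a matrix-degrading enzyme of injured epithelia, stood at 6.65, 9.08, 8.66, 5.17 and 1.99 CPM against 0.0496 to 0.43 CPM and rose by 5.15 ± 0.60 (adjusted p = 0.00098, edgeR). Scube3, a secreted signalling protein, stood at 3.73 to 9.26 CPM against 0.0484 to 0.496 CPM and rose by 4.46 ± 0.47 (adjusted p = 8.0e-04, edgeR). Tbx1, a developmental transcription factor, had 237 reads against 7 in LF_C, a ratio of 31.3 (interval 14.96 to 78.7). Lrtm2, a membrane protein with leucine-rich repeats, had 309 reads against 7, a ratio of 40.8 (interval 19.6 to 102). None of these 4 passed in edgeR against HF_C (adjusted p = 0.22 to 0.787). Folh1, a peptidase that also cleaves folates, was likewise among the 6 highest changes, with 257 reads against 3 in LF_C, a ratio of 79.2 (interval 26.8 to 387). Sult1e1, the oestrogen sulfotransferase, stood at 4.86, 12.3, 5.75, 12.2 and 2.40 CPM, 0.846 to 3.63 CPM in HF_C and 0 to 0.581 CPM in LF_C. It was higher than in LF_C by 5.04 ± 0.74 (adjusted p = 0.00233, edgeR) and higher than in HF_C by 2.14 ± 0.47 (adjusted p = 0.0181, edgeR; 0.0542 without HF_C 5 and 0.0563 without HF_C 4).

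**Figure D3:**
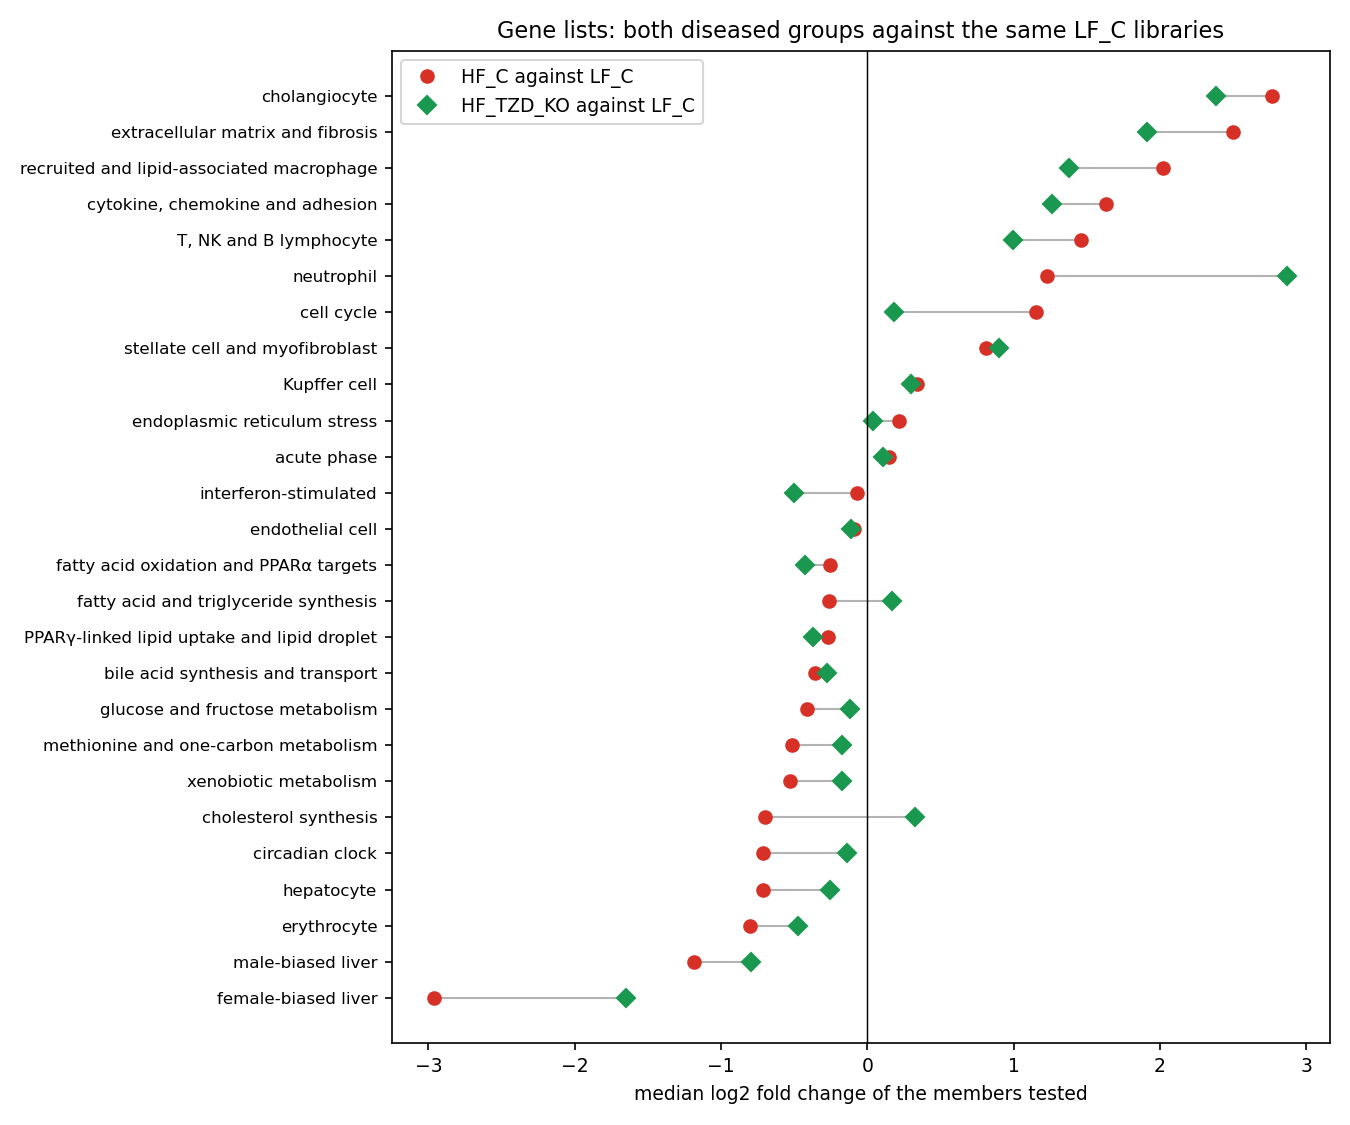
Median log2 fold change (horizontal axis) of the tested members of each list, in HF_C (circles) and in HF_TZD_KO (diamonds) against the same LF_C libraries. The adipocyte and pancreatic acinar cell lists, with few members tested, are not drawn. Cholangiocyte, matrix and macrophage lists lie far right in both, cholesterol synthesis changes side, from -0.70 to 0.33, and the neutrophil median lies further right in HF_TZD_KO. The neutrophil medians cover unlike sets, 6 genes tested in HF_TZD_KO and 5 in HF_C.

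Genes of fatty acid use were among the decreases. Of 30 fatty acid oxidation and PPARα target genes, 17 were lower than in LF_C and none was higher, with a median of -0.43. Of these 17, 10 were disease changes that remained, and the others were not disease changes. In HF_C 13 were lower and 1 higher, with a median of -0.25. Against HF_C 5 were lower and none higher. Without HF_TZD_KO 5, 21 were lower than in LF_C, and without LF_C 4, 14. Cyp4a14, an enzyme that hydroxylates fatty acids at their end and a classic PPARα target, stood at 509, 1390, 1136 and 1732 CPM in LF_C, 222 to 506 CPM in HF_C and 383, 86.6, 64.8, 348 and 284 CPM in HF_TZD_KO. It fell by 2.36 ± 0.51 (adjusted p = 0.0119, edgeR) without overlap, although reads of the near-identical Cyp4a genes may be shared. Slc25a20, which carries acylcarnitines into mitochondria, stood at 91.8 to 112 CPM against 146 to 200 CPM and fell by 0.77 ± 0.11 (adjusted p = 0.00214, edgeR). Acaa1b, a thiolase of peroxisomes, stood at 1017 to 1212 CPM against 1562 to 2103 CPM in LF_C and 1650 to 2710 CPM in HF_C. Acaa1b was no disease change (0.16 ± 0.14 in HF_C) and fell below both groups, by 0.79 ± 0.12 against LF_C (adjusted p = 0.00248, edgeR) and 0.95 ± 0.12 against HF_C (adjusted p = 0.00143, edgeR).

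Other PPARα-regulated genes did not pass against LF_C. Cpt1a, the gate of mitochondrial fatty acid oxidation, stood at 774 to 958 CPM against 770 to 1104 CPM (-0.24 ± 0.13, adjusted p = 0.231, edgeR). Pdk4, a kinase that spares glucose during fasting, stood at 9.66 to 28.1 CPM in HF_TZD_KO, 26.0 to 48.7 CPM in HF_C and 7.63 to 33.7 CPM in LF_C. It passed against HF_C (-1.05 ± 0.26, adjusted p = 0.0269, edgeR), but in 6 of the fits that left out 1 library it did not. Fgf21, a fasting hormone of the liver, stood at 7.41 to 19.8 CPM against 8.18 to 24.2 CPM (-0.04 ± 0.34, adjusted p = 0.95, edgeR).

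Genes of glucose production were among the decreases. G6pc, the enzyme that releases glucose from the liver cell, stood at 143, 72.9, 184, 157 and 128 CPM in HF_TZD_KO, 204 to 330 CPM in HF_C and 313 to 536 CPM in LF_C. It fell by 1.71 ± 0.23 against LF_C (adjusted p = 0.00193, edgeR) and by 0.81 ± 0.21 against HF_C (adjusted p = 0.0332, edgeR), with no overlap of the 3 groups. The call against HF_C held in 3 of 10 fits that left out 1 library (adjusted p up to 0.0911). Pck1, the first committed enzyme of that pathway, stood at 893 to 1472 CPM against 2154 to 3622 CPM and fell by 1.22 ± 0.18 (adjusted p = 0.00228, edgeR). Pkm, a glycolytic enzyme of cells other than hepatocytes, rose by 1.24 ± 0.23 (adjusted p = 0.00607, edgeR). The list of 20 glucose and fructose genes had 4 higher and 4 lower, with a median of -0.12, against 5 higher and 11 lower in HF_C. It was 6 and 6 without HF_TZD_KO 5, and 1 higher and 4 lower without LF_C 4.

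Further decreases were named by size among protein-coding genes of at least 2 mean CPM without overlap. Mup15, a major urinary protein made under growth hormone, stood at 35.4, 15.4, 34.4 and 15.4 CPM in LF_C, while HF_TZD_KO held 0.183, 0.180, 4.88, 1.06 and 0.460 CPM. It fell by 4.27 ± 0.71 (adjusted p = 0.00361, edgeR), and Mup17 by 3.97 ± 0.69 (adjusted p = 0.00427, edgeR); the Mup genes are near copies that may share reads. HF_TZD_KO 3 was the highest treated library for both. Hao2, a peroxisomal oxidase of long hydroxy acids, stood at 0.0548 to 1.95 CPM against 2.37 to 7.04 CPM and fell by 2.36 ± 0.59 (adjusted p = 0.0214, edgeR). Its call was lost without LF_C 2, LF_C 4 or HF_TZD_KO 2 (adjusted p = 0.0548 to 0.0586, edgeR). Cyp46a1, which hydroxylates cholesterol for export from cells, stood at 7.61, 9.57, 9.37, 12.9 and 9.97 CPM against 21.2 to 43.7 CPM and fell by 1.79 ± 0.22 (adjusted p = 0.0012, edgeR). Sema5b, a semaphorin, stood at 3.07, 1.30, 2.30, 2.16 and 3.99 CPM, below all of HF_C (6.59 to 9.36 CPM) and of LF_C (13.98 to 26.7 CPM). It fell by 2.90 ± 0.28 against LF_C (adjusted p = 0.00064, edgeR) and by 1.55 ± 0.25 against HF_C (adjusted p = 0.00346, edgeR).

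Of 16 endothelial genes, 3 were lower than in LF_C and none higher, with a median of -0.11, and all 3 were disease changes. In HF_C 2 were higher and 4 lower. Without HF_TZD_KO 5, 2 were higher and 3 lower, and the median was 0.0097. Dnase1l3, a secreted nuclease, stood at 31.6 to 44.7 CPM against 55.1 to 80.7 CPM and fell by 0.86 ± 0.13 (adjusted p = 0.00248, edgeR). Clec4g, a lectin of sinusoidal endothelial cells, stood at 17.3 to 32.1 CPM against 40.1 to 50.8 CPM and fell by 0.87 ± 0.15 (adjusted p = 0.00416, edgeR).

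Hepatocyte genes were a group of disease changes that no longer passed. In HF_C, 16 of 20 hepatocyte genes were lower than in LF_C, with a median of -0.71. In HF_TZD_KO none passed against LF_C in edgeR, with a median of -0.26; 7 were lower and none higher at an unadjusted p under 0.05, and DESeq2 called 3 lower. Against HF_C, 10 of the 20 were higher and none lower, with a median of 0.53. Without HF_TZD_KO 5, the library nearest to LF_C, 5 of the 20 were lower than in LF_C. The summed level of the list was 107420 to 147610 CPM in LF_C, 67431 to 76691 in HF_C and 101920 to 142710 in HF_TZD_KO.

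Alb itself (chromosome 5, 90460889 to 90476603) stood at 59106, 69778, 77823 and 84788 CPM in LF_C, whereas HF_TZD_KO held 58420, 67121, 69736, 74141 and 83862 CPM. HF_C stood lower, at 32732 to 40063 CPM. The treated and healthy groups covered almost the same range (-0.05 ± 0.19, adjusted p = 0.885, edgeR), and the treated group was above HF_C by 0.94 ± 0.16 (adjusted p = 0.0058, edgeR). Slc10a1, the bile salt uptake carrier, stood at 389, 538, 629, 486 and 763 CPM in HF_TZD_KO, 190 to 283 CPM in HF_C and 617 to 935 CPM in LF_C. It was above HF_C without overlap (1.31 ± 0.17, adjusted p = 0.00148, edgeR). Against LF_C it did not pass (-0.45 ± 0.18, adjusted p = 0.121, edgeR), but it did without HF_TZD_KO 5 (-0.57, adjusted p = 0.0245, edgeR). Arg1, the last enzyme of the urea cycle, stood at 892 to 1167 CPM, between HF_C at 626 to 772 CPM and LF_C at 1167 to 1788 CPM. It was above HF_C by 0.60 ± 0.10 (adjusted p = 0.00451, edgeR) and at -0.44 ± 0.14 against LF_C (adjusted p = 0.054, edgeR). Arg1 passed as lower than in LF_C in 5 of 17 alternatives. Among these were DESeq2 (adjusted p = 0.0143) and the fit without HF_TZD_KO 5 (adjusted p = 0.0313, edgeR). Ttr, the carrier of thyroid hormone and retinol-binding protein, was above HF_C by 0.47 ± 0.12 (adjusted p = 0.0378, edgeR), in 4 of 10 fits that left out 1 library (adjusted p up to 0.0929). Against LF_C Ttr did not pass (-0.43 ± 0.17, adjusted p = 0.101, edgeR), but did as lower with DESeq2 (0.0383) and without HF_TZD_KO 5 (0.0377).

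Cholesterol synthesis genes were the list with the most calls against HF_C, 19 of 24. Of the 24 genes, 14 were lower and none higher in HF_C, with a median of -0.70. Without LF_C 4, 21 were lower in HF_C. In HF_TZD_KO none passed against LF_C in edgeR, with a median of 0.33, or 0.14 without LF_C 4; 1 was higher and none lower at an unadjusted p under 0.05, and DESeq2 called none. Against HF_C none was lower, with a median of 1.01. Sqle, the enzyme that epoxidises squalene, stood at 41.9, 76.2, 95.5, 129 and 42.2 CPM in HF_TZD_KO, 14.3 to 47.0 CPM in HF_C and 18.9 to 84.8 CPM in LF_C. It was above HF_C by 1.56 ± 0.35 (adjusted p = 0.0202, edgeR; 0.0637 without HF_C 4 and 0.0632 without HF_C 5). Fdps, which makes farnesyl diphosphate, was above HF_C by 1.38 ± 0.28 (adjusted p = 0.0129, edgeR). LF_C was wide for these genes, with LF_C 4 the lowest of its group for Sqle and Fdps.

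The sterol regulatory element, searched as TCACNCCAC on both strands from 250 bases before to 50 bases after the start, was found in 1 of the 16 members that RefSeq's promoter table held. It was in 1.44% of the 27025 gene symbols of that table, counted in the same way, and in 1.24% of its 32851 windows.

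The methionine and one-carbon list, hepatocyte enzymes that make and use methyl groups, had 15 of 20 lower in HF_C and 1 higher. In HF_TZD_KO 1 was higher and 1 lower than in LF_C, with a median of -0.17, and 13 were higher and 1 lower than in HF_C. Without HF_TZD_KO 5, 4 were lower than in LF_C, and without LF_C 4 none passed either way, with a median of -0.030. Bhmt, which remakes methionine from homocysteine with betaine, was no disease change and stood at 2769, 3188, 3248, 2567 and 2324 CPM in HF_TZD_KO. LF_C stood at 2342, 938, 1314 and 1823 CPM and HF_C at 1337 to 1972 CPM. It was above LF_C by 0.81 ± 0.23 (adjusted p = 0.0373, edgeR), in 2 of 9 fits that left out 1 library, and above HF_C by 0.86 ± 0.13 (adjusted p = 0.00271, edgeR). Ftcd, which feeds histidine carbon into folate, was the member that was lower than in LF_C, by -0.52 ± 0.14 (adjusted p = 0.0311, edgeR; 4 of 9 such fits).

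Clock and detoxification genes were lower in disease and mostly did not pass in the treated livers. Of 18 circadian clock genes, 13 were lower and 2 higher in HF_C, but 1 lower and 1 higher in HF_TZD_KO, where the median was -0.13; against HF_C 7 were higher and none lower. Npas2, a partner of the clock's core activator, was the one that stayed high (1.92 ± 0.48, adjusted p = 0.0216, edgeR; 4 of 9 fits without 1 library). Of 24 xenobiotic genes, 2 were lower and 1 higher than in LF_C, with a median of -0.17, while 15 of 23 were lower in HF_C; without HF_TZD_KO 5 it was 5 lower and 1 higher. Cyp3a11, the main drug-oxidising enzyme of its family, was the higher one, at 1235 to 1475 CPM against 724 to 849 CPM in LF_C and 2142 to 2975 CPM in HF_C. It was 0.76 ± 0.11 above LF_C (adjusted p = 0.00214, edgeR) and 0.94 ± 0.11 below HF_C (-0.94, adjusted p = 0.00096, edgeR), without overlap.

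Cell division genes were the main group that had been higher and no longer passed. In HF_C 14 of 20 cell cycle genes were higher, with a median of 1.16. In HF_TZD_KO 1 was higher than in LF_C and none lower, with a median of 0.18, and 6 were lower than in HF_C. Without HF_TZD_KO 5, 5 were higher than in LF_C. Ccnd1, the cyclin that starts the cycle, was the one higher, at 47.8 to 106 CPM against 16.8 to 51.2 CPM (1.15 ± 0.31, adjusted p = 0.0278, edgeR; 3 of 9 fits without 1 library). The gene overlaps another on the opposite strand, and the libraries do not tell strands apart.

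The genes with the largest return were named by rule. From above, Cidea, Ly6d, Themis, Kbtbd11 and Cyp21a1 fell by 2.08 to 2.89 between HF_C and HF_TZD_KO. Kbtbd11, named for its BTB and kelch domains, stood at 9.48 to 15.1 CPM in HF_C, 1.18 to 4.31 CPM in HF_TZD_KO and 1.24 to 6.02 CPM in LF_C (-2.17 ± 0.25 against HF_C, adjusted p = 0.00092, edgeR). Ly6d, a small membrane-anchored protein, stood at 77.0 to 107 CPM in HF_C and at 39.0, 7.59, 19.7, 36.3 and 4.04 CPM in HF_TZD_KO (-2.15 ± 0.46, adjusted p = 0.0157, edgeR). Against LF_C Ly6d did not pass, but its estimate was still higher, at 1.26 (adjusted p = 0.241, edgeR). Themis, a signalling protein of developing T cells, fell by 2.08 ± 0.36 (adjusted p = 0.00605, edgeR). Cyp21a1, the steroid 21-hydroxylase, fell by 2.34 ± 0.55 (adjusted p = 0.0239, edgeR), with the call lost in 4 fits that left out 1 library (adjusted p = 0.0522 to 0.0642).

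From below, Lrtm1, Hamp2, Clec2h, Cyp2c40 and Hsd3b5 led. Lrtm1, a membrane protein with leucine-rich repeats, stood at 13.8, 9.71, 18.5, 8.08 and 22.3 CPM in HF_TZD_KO, 6.06 to 14.96 CPM in LF_C and 0.360 to 1.92 CPM in HF_C. It was above HF_C by 3.90 ± 0.40 (adjusted p = 0.00037, edgeR). Hamp2, a homologue of the iron hormone hepcidin, stood at 54.2, 144, 59.0, 84.5 and 143 CPM against 2.76 to 20.4 CPM in HF_C (3.18 ± 0.47, adjusted p = 0.00233, edgeR). LF_C stood at 23.1, 27.9, 38.7 and 228 CPM, and without LF_C 4 the gene passed above LF_C (1.69, adjusted p = 0.0166, edgeR). Clec2h, a lectin-like membrane protein, was above HF_C by 2.57 ± 0.45 (adjusted p = 0.00644, edgeR; 0.0652 with a replicate block). Cyp2c40, an arachidonic acid hydroxylase of a family whose members may share reads, was above HF_C by 5.24 ± 0.64 (adjusted p = 0.00107, edgeR), from 0 to 0.115 CPM to 0.764 to 3.42 CPM. LF_C stood at 1.26 to 22.01 CPM, and Cyp2c40 did not pass against it (-1.93 ± 0.69, adjusted p = 0.0792, edgeR); it passed as lower in the fit of all 24 libraries (0.0172) and without LF_C 1 (0.0382), and without LF_C 4 the value was -0.56. Hsd3b5, a male-specific steroid enzyme, stood at 0.504, 0.674, 38.1, 0.106 and 59.6 CPM in HF_TZD_KO and 27.5, 0.860, 21.3 and 28.5 CPM in LF_C. It was high in 2 treated libraries only, and its call against HF_C (6.36 ± 1.56, adjusted p = 0.0276, edgeR) was lost in 6 fits that left out 1 library.

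**Figure D4:**
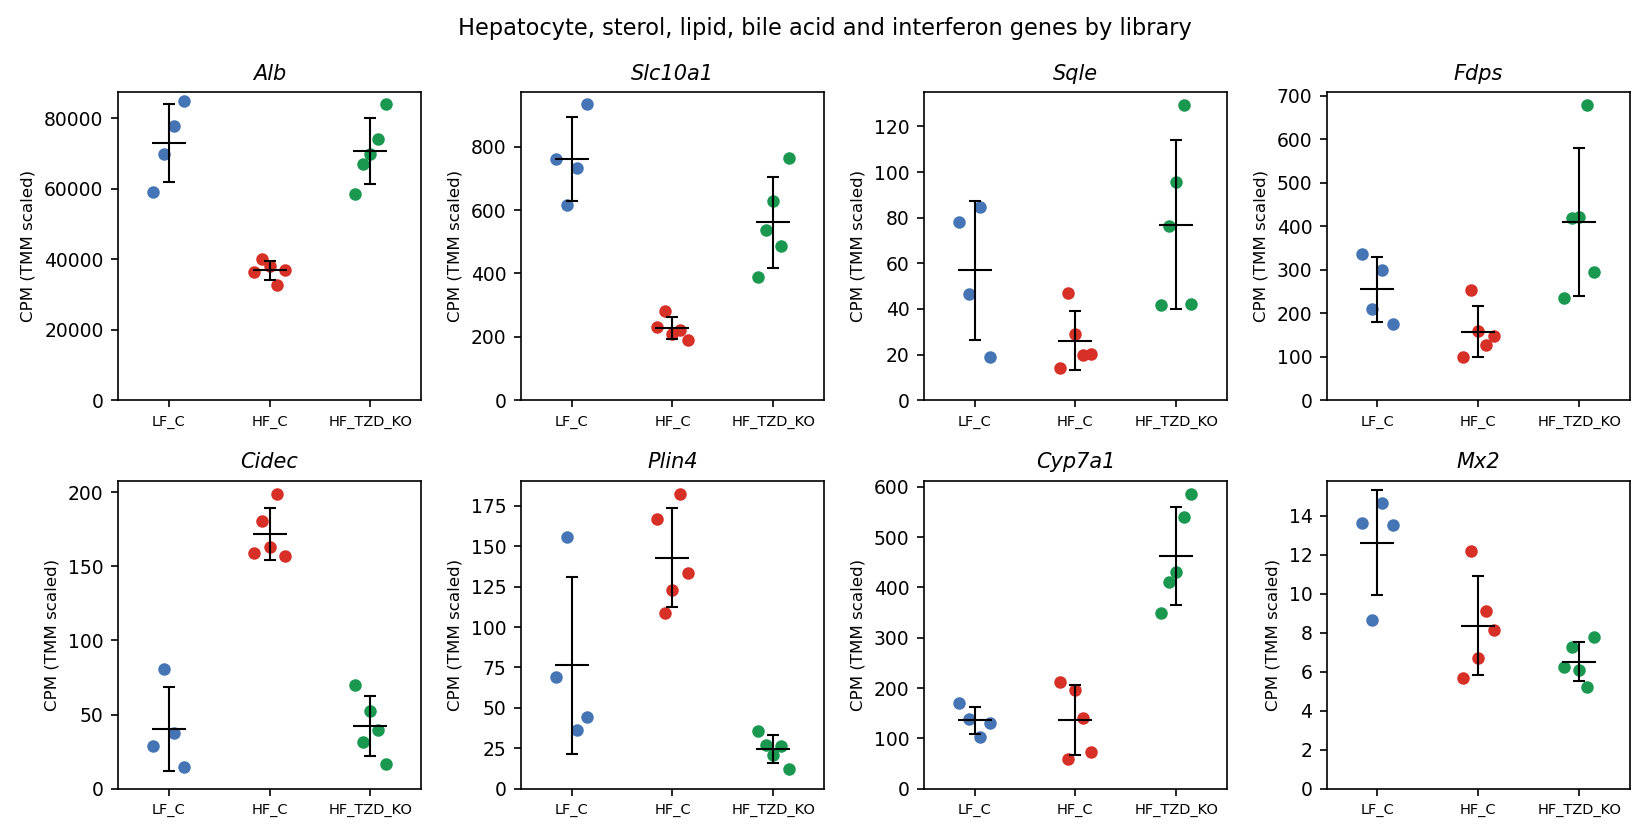
CPM on linear axes for 8 genes in each library, as points in replicate order from left to right, with the mean and SD of each group as lines. Alb and Slc10a1 in HF_TZD_KO lie above all of HF_C, Cidec and Plin4 below all of HF_C, Cyp7a1 above both groups, and Mx2 below all of LF_C.

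The genes nearest to PPARγ's own work split into genes at the healthy level, below it and above it. Of 25 genes of lipid uptake and lipid droplets, 3 were higher and 11 lower than in LF_C, with a median of -0.37, against 6 higher and 11 lower in HF_C. Against HF_C 3 were higher and 6 lower. Cidec, which enlarges lipid droplets and is a PPARγ target, stood at 69.7, 31.8, 52.6, 39.5 and 16.8 CPM in HF_TZD_KO, 157 to 198 CPM in HF_C and 28.6, 80.6, 37.4 and 14.4 CPM in LF_C. It fell by 2.03 ± 0.28 against HF_C (adjusted p = 0.00163, edgeR) and was within the LF_C range (0.06 ± 0.45, adjusted p = 0.947, edgeR). Cidea, its relative, stood at 1.12 to 8.88 CPM against 13.1 to 64.4 CPM in HF_C (-2.89 ± 0.52, adjusted p = 0.00682, edgeR) and 0 to 5.55 CPM in LF_C.

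Plin4 (chromosome 17, 56100591 to 56109803), a coat protein of lipid droplets, stood at 35.5, 27.4, 21.0, 26.2 and 12.4 CPM in HF_TZD_KO. LF_C stood at 69.1, 155, 36.3 and 44.1 CPM and HF_C at 109 to 182 CPM. The treated libraries were below both groups without overlap, by 1.64 ± 0.39 against LF_C (fell by 1.64, adjusted p = 0.0185, edgeR) and 2.55 ± 0.23 against HF_C (fell by 2.55, adjusted p = 3.0e-04, edgeR). Without LF_C 2 the first change was -1.02, and without HF_TZD_KO 3 its adjusted p was 0.0508 (edgeR). Mogat1, which makes diacylglycerol and has been studied as a PPARγ target in liver, stood at 1.56, 0.764, 1.53, 1.37 and 0.358 CPM against 2.33 to 4.34 CPM in LF_C. It fell by 1.58 ± 0.38 (adjusted p = 0.018, edgeR; 0.0508 without LF_C 2) and by 2.13 ± 0.42 against HF_C (adjusted p = 0.0102, edgeR; 0.0619 with a replicate block). Plin4 and Mogat1 each overlap a gene on the opposite strand. Fitm1 and Fitm2, membrane proteins that help droplets form, were below LF_C by 0.94 ± 0.14 (Fitm1 fell by 0.94, adjusted p = 0.00225, edgeR) and 0.85 ± 0.12 (Fitm2 fell by 0.85, adjusted p = 0.00202, edgeR), and both were below HF_C. G0s2, an inhibitor of the main triglyceride lipase, fell by 1.45 ± 0.21 against LF_C (adjusted p = 0.00219, edgeR) and did not pass against HF_C (adjusted p = 0.437).

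Fabp4, a fatty acid carrier of fat cells and macrophages, went the other way. It stood at 39.1, 65.3, 63.5, 31.2 and 13.5 CPM in HF_TZD_KO, 24.7 to 47.4 CPM in HF_C and 5.85 to 11.2 CPM in LF_C. It was above LF_C without overlap (2.35 ± 0.40, adjusted p = 0.00384, edgeR) and did not pass against HF_C (0.07 ± 0.33, adjusted p = 0.929, edgeR). Cd36, the fatty acid uptake protein, stood at 229 to 354 CPM, within the LF_C range of 172 to 367 CPM (0.20 ± 0.20, adjusted p = 0.543, edgeR). Of the markers that define fat cells, Adipoq and Retn were at 0 in all 5 HF_TZD_KO libraries, and 3 of the 6 adipocyte genes were tested. Adipoq was at 0 in all 5 HF_C libraries too, and Plin1 was at 0 in all 4 LF_C libraries. Cfd, the complement factor of fat cells, was the 1 that passed, at 0.409 to 6.51 CPM against 0 to 0.387 CPM (3.52 ± 0.93, adjusted p = 0.0266, edgeR), in 2 of 5 fits without 1 library.

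Fat synthesis in HF_TZD_KO differed little from LF_C in calls. In HF_C, 6 of 20 fatty acid and triglyceride synthesis genes were lower and 1 was higher than in LF_C. HF_TZD_KO had 4 of the 20 higher and none lower than in HF_C. Against LF_C, 1 was higher and 1 lower in HF_TZD_KO, with a median of 0.17. Scd2, a desaturase that liver cells other than hepatocytes also make, was the higher one (2.54 ± 0.35, adjusted p = 0.00196, edgeR), at 30.1 to 109 CPM against 6.54 to 16.8 CPM. Fasn, the fatty acid synthase, stood at 881 to 1987 CPM against 360 to 1282 CPM (0.69 ± 0.33, adjusted p = 0.188, edgeR). Scd1, the main desaturase of hepatocytes, stood at 29808 to 50049 CPM against 23057 to 34957 CPM (0.52 ± 0.21, adjusted p = 0.11, edgeR); with DESeq2 it passed (adjusted p = 0.0172).

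Some changes were seen in HF_TZD_KO that were not disease changes. There were 86 such genes higher and 193 lower than in LF_C, of which 26 and 57 also passed in the same direction against HF_C. Cyp7a1 (chromosome 4, 6265612 to 6275633), the rate-limiting enzyme of bile acid synthesis, stood at 348, 411, 431, 540 and 586 CPM in HF_TZD_KO. LF_C stood at 171, 138, 104 and 130 CPM and HF_C at 212, 59.6, 197, 141 and 73.2 CPM. Every treated library was above every library of both groups, by 1.76 ± 0.18 against LF_C (adjusted p = 8.0e-04, edgeR) and 1.76 ± 0.32 against HF_C (adjusted p = 0.00721, edgeR).

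Abcc3 (chromosome 11, 94343295 to 94392997), which exports bile acids and conjugates to the blood, stood at 163, 162, 159, 174 and 199 CPM. It was below LF_C at 286 to 402 CPM and HF_C at 400 to 499 CPM, falling by 1.05 ± 0.12 (adjusted p = 0.00095, edgeR) and 1.35 ± 0.09 (fell by 1.35, adjusted p = 1.6e-05, edgeR). Nr1h4, the bile acid receptor FXR, was between both groups (-0.34 ± 0.09 against LF_C, adjusted p = 0.028, edgeR; 2 of 9 fits without 1 library). In all, 1 of 20 bile acid genes was higher and 2 were lower than in LF_C, with a median of -0.27; without HF_TZD_KO 5 it was 1 and 8.

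Vnn1, an ectoenzyme that recycles pantothenate and a PPARα target, stood at 69.1, 51.9, 69.3, 66.8 and 76.5 CPM against 156 to 247 CPM in LF_C and 141 to 194 CPM in HF_C. It fell by 1.60 ± 0.15 (adjusted p = 0.00064, edgeR) and 1.33 ± 0.12 (fell by 1.33, adjusted p = 3.0e-04, edgeR), without overlap. Tff3, a mucosal repair peptide, stood at 1.28, 13.4, 3.40, 11.5 and 1.69 CPM against 0.430 to 0.920 CPM and was higher by 3.19 ± 0.73 (adjusted p = 0.0151, edgeR; 0.0593 with voom quality weights); its call against HF_C held in 6 of 10 fits without 1 library. Pde6c, a phosphodiesterase of cone cells, was higher by 1.73 ± 0.39 (adjusted p = 0.0151, edgeR) and Nat8, an acetyltransferase of liver and kidney, by 0.84 ± 0.17 (adjusted p = 0.00851, edgeR). Ptk6, an epithelial tyrosine kinase, was higher by 1.46 ± 0.38 (adjusted p = 0.0266, edgeR), in 5 of 9 fits without 1 library. Spc25, part of the kinetochore, fell by 1.15 ± 0.20 (adjusted p = 0.00489, edgeR). Pcp4l1, a small protein first described in brain, fell by 1.37 ± 0.37 (adjusted p = 0.0287, edgeR), in 4 of 9 fits without 1 library, and its call against HF_C held in 2 of 10.

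Some genes induced by interferon were lower in the treated libraries. Of 22 interferon-stimulated genes, 8 were lower and none higher than in LF_C, with a median of -0.50. In HF_C 6 were higher and 2 lower, with a median of -0.07, and against HF_C 5 were lower and none higher. Without LF_C 4, 11 were lower, and without HF_TZD_KO 5 it was 8 lower and 1 higher. As a list the groups overlapped: the mean score was -0.79 to -0.21 in HF_TZD_KO, and 0.19, -0.25, 0.45 and -0.40 in LF_C. Mx2, an antiviral GTPase, stood at 6.23, 7.28, 6.08, 5.23 and 7.77 CPM against 13.7, 8.69, 14.7 and 13.5 CPM and fell by 0.96 ± 0.18 (adjusted p = 0.00625, edgeR). Irf7, the transcription factor that amplifies the response, stood at 48.0, 49.2, 55.3, 45.6 and 36.6 CPM against 123, 71.4, 135 and 65.3 CPM and fell by 1.08 ± 0.21 (adjusted p = 0.00704, edgeR). LF_C 1 and LF_C 3 were well above the other healthy livers for Irf7, and all treated libraries were below all 4. The gene overlaps another on the opposite strand.

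Promoters of 3 of the lower members are printed because they hold the interferon-stimulated response element, the sequence at which interferon-activated factors bind. They are the 3 of the 8 lower members whose window held a match. The windows run 5′ to 3′ on the gene's strand, from RefSeq on GRCm38.p6. Capitals mark GAAA, any 2 bases and GAAA again, on either strand, and the 2 matches in Bst2 overlap each other.
Bst2 (chr8:71537423-71537722, minus strand): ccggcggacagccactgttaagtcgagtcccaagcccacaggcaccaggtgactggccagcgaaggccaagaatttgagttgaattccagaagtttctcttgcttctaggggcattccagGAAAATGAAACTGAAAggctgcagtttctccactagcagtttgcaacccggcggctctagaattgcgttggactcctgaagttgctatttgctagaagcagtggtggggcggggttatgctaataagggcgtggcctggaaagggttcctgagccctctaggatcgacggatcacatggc
Ifit1 (chr19:34640639-34640938, plus strand): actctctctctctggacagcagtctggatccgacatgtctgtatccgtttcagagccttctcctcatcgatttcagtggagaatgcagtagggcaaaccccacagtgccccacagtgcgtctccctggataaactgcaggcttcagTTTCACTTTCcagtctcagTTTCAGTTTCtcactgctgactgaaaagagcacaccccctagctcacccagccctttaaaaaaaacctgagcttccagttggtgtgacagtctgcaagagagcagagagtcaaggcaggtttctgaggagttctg
Stat2 (chr10:128270248-128270547, plus strand): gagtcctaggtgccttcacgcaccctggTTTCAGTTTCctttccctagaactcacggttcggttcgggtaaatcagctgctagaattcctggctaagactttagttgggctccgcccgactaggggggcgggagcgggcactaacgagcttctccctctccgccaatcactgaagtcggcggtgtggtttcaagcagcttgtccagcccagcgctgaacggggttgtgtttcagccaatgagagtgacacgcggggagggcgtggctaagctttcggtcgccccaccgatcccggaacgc

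The motif was in 11 of the 16 members with a window, of 22 in the list. It was in 3.99% of all 27025 gene symbols, counted in the same way, and in 3.44% of all 32851 windows. Bst2, a membrane protein that tethers budding virus, stood at 160, 139, 149, 139 and 164 CPM against 204, 193, 254 and 224 CPM and fell by 0.55 ± 0.10 (adjusted p = 0.00625, edgeR). Ifit1, which binds foreign RNA ends, stood at 16.2, 15.9, 18.5, 12.7 and 13.0 CPM against 38.4, 20.04, 52.5 and 20.7 CPM and fell by 1.11 ± 0.26 (adjusted p = 0.0161, edgeR). Stat2, which carries the interferon signal to the nucleus, stood at 91.6 to 103 CPM against 105 to 140 CPM and fell by 0.39 ± 0.10 (adjusted p = 0.0217, edgeR; 3 of 9 fits without 1 library). The treated libraries lay below LF_C without overlap for each of the 3, as they did for 6.47% of all genes tested, and none passed against HF_C in edgeR (adjusted p = 0.128 to 0.462). A motif match is a description of the sequence, not of binding.

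**Figure D5:**
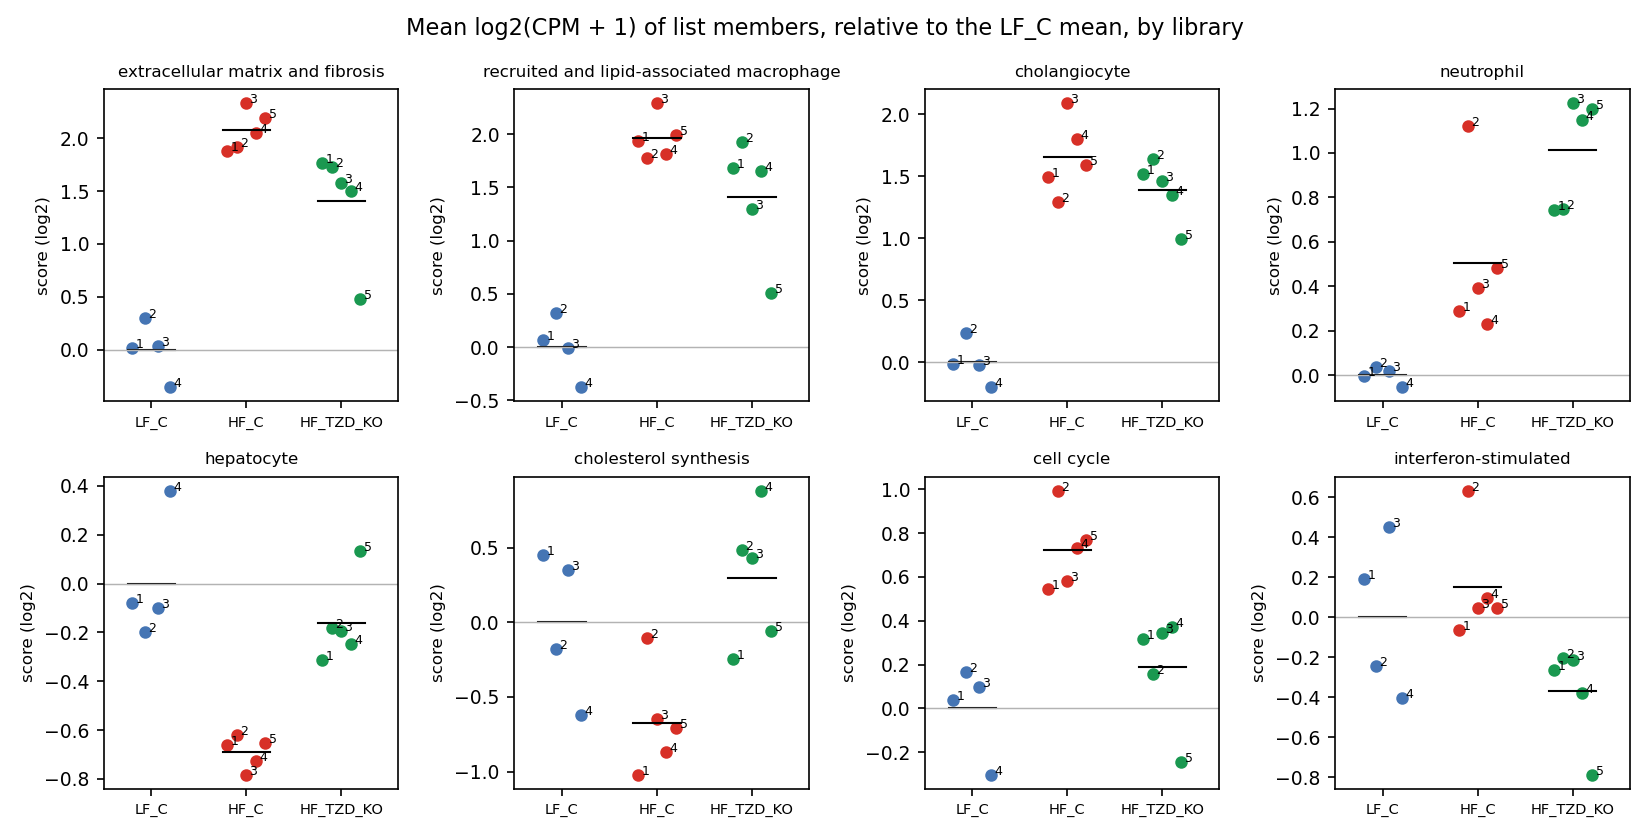
Mean log2(CPM + 1) of the members of 8 lists in each library, relative to the LF_C mean, with the group mean as a line and replicate numbers beside the points. HF_TZD_KO 5 lies at 0.48 for matrix genes, where the other 4 treated libraries lie at 1.503 to 1.76, and among the highest of its group for neutrophil genes.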

How the data were processed

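Read counts per gene, the authors' normalized signal and FPKM values, and their log2 fold changes and p-values stand in 5 deposited tables. Per the submitters' processing notes, reads were aligned with STAR 2.6.1 to GRCm38/mm10, counted with HTSeq 0.6.1 and compared with DESeq2; the annotation release is not given in the sources used here. The deposited normalized signal, FPKM, log2 and p-value columns, and the gene length beside them, were not used for any result. Per the labels' protocols, libraries were not strand-specific.

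The deposited counts of 24137 genes, 17879 of them protein-coding, were joined by gene identifier, and 0 counts differed between tables. Genes passed edgeR's filter (10 counts, 15 in total) and were tested between the groups compared with TMM scaling and the quasi-likelihood test (R 4.3.3, edgeR 4.0.16), with Benjamini-Hochberg adjustment over all genes tested and a threshold of 0.05. Scripts were tested on simulated data. Counting intervals are exact at 95% and, like any depth limit, cover counting error only.

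The comparison, the 28 gene lists and the named genes were chosen with earlier results of these data known. Named genes are a fixed set, the largest changes per class of comparison and direction among protein-coding genes with at least 2 mean CPM and no overlap between groups, and list members among the smallest adjusted p. Of 527 listed symbols 518 matched by symbol, 4 by gene identifier and 5 did not match. Each library is 1 mouse, and cage, litter and sequencing batch are not given in the sources used here. Alternatives were RLE scaling, library totals, no filter, a filter of 2 CPM, DESeq2 1.42.0, limma 3.58.1 voom with quality weights, a fit of all 24 libraries, the replicate number as a block, a minimum log2 change of 1, and each library left out.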

Additional observations from a re-analysis of the deposited data

Results flagged for a closer look

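Libraries far from the rest of their group were looked for in 408 sets of 4 or 5 values. The gap rule marked 39, where a rate of 1 in 20 would give 20.4. The sets share the same libraries, and many hold genes chosen by their values. The rate is thus a rough guide only, and an excess over it was not tested.

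HF_TZD_KO 5 was marked for the matrix score at 0.48 (the others 1.503 to 1.76, log2 relative to LF_C), for the xenobiotic score at 0.30 (others -0.31 to -0.20), for Col6a3 at 30.9 CPM and for Lrat at 35.3 CPM. HF_TZD_KO 3 was marked for Mup15 at 4.88 CPM, Mup17 at 5.86 CPM and Mup20 at 3951 CPM, HF_TZD_KO 2 for Cfd at 6.515 CPM, and HF_TZD_KO 1 for the acute phase gene Orm2 at 46.3 CPM.

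HF_C 2 was marked 10 times. Its neutrophil score was 1.12 and its interferon score 0.63. Its levels were 4.95 CPM for Ltf, 5.22 for Ngp, 10.3 for S100a9, 15.6 for Mup17, 126 for Irf7, 35.8 for Ifit1, 127 for Stat2 and 3850 for Ttr. HF_C 1 was marked for Sult1e1 at 3.63 CPM, Fabp4 at 24.7 CPM and Ftcd at 363 CPM, and HF_C 5 for Cd163 at 4.20 CPM, G6pc at 330.3 CPM and Il1rn, the antagonist of the interleukin-1 receptor, at 28.6 CPM.

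In the healthy livers, LF_C 2 was marked for the male-biased score at -0.56, Ngp at 0.258 CPM, Mmp7 at 0.43 CPM, Kbtbd11 at 6.02 CPM, Trem2 at 2.28 CPM and Gpnmb at 4.945 CPM. LF_C 4 was marked for Folh1 at 0.149 CPM, Hamp2 at 228 CPM, Clec2h at 6.94 CPM, Icam1 at 12.1 CPM and Ftcd at 776 CPM. LF_C 1 was marked for the fatty acid oxidation score at -0.20, the glucose and fructose score at -0.069 and Acaa1b at 1562 CPM.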

How the results depend on the processing

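HF_TZD_KO against LF_C gave 2189 calls, and 4265 with voom quality weights, 4372 in the fit of all 24 libraries and 1088 with a log2 change of at least 1. Disease changes remaining, 1890, became 3549, 3649 and 997 under the same 3 settings. HF_TZD_KO against HF_C gave 1101 calls, and 2034 with library totals, 1874 with DESeq2, 1685 in the fit of all libraries and 253 with a log2 change of at least 1. Disease changes returned, 718, became 1168 with library totals and 141 with the minimum change, and HF_C against LF_C, 6003, became 2293 with that minimum. Library totals moved the median log2 change of all genes to 0.24 in HF_C against LF_C, 0.09 in HF_TZD_KO against LF_C and -0.16 in HF_TZD_KO against HF_C. The cause of these moves was not tested.

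Replicate numbers did not pair the mice: deviations of same-numbered libraries correlated at -0.27 to 0.08. With the replicate block, HF_TZD_KO against HF_C gave 392 calls, returned changes numbered 228, and HF_TZD_KO against LF_C gave 2979 calls. LF_C (n = 4) has no replicate 5, so under this block HF_TZD_KO 5 did not enter the change against LF_C. The calls against LF_C are thus no separate check from leaving out that library. Under that block Hsd3b5 against LF_C was -2.69, Fabp4 against HF_C -0.061, Pdk4 against LF_C 0.12 and Fgf21 against LF_C 0.20, each opposite in sign to its reported value. With HF_TZD_KO 5 left out and no block, the values against LF_C turned as well, to -1.01 for Hsd3b5, 0.027 for Pdk4 and 0.13 for Fgf21.

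Leaving out 1 library gave 1112 to 3459 calls for HF_TZD_KO against LF_C, 978 to 2954 remaining and 359 to 826 returned changes. It gave 549 to 1241 calls for HF_TZD_KO against HF_C and 5025 to 6123 for HF_C against LF_C.

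Signs turned only for genes that did not pass in the comparison concerned. With library totals these were Fabp4 (-0.049), Cpt1a (-0.052), Clec4g (-0.057) and Pck1 (-0.031) against HF_C, and Fgf21 (0.066) and Alb (0.058) against LF_C. With voom they were Hsd3b5 against LF_C (-2.92) and Dnase1l3 (0.071) and Ccnd1 (0.078) against HF_C. With 1 library left out, values against LF_C that turned ranged over -0.14 to 0.028 for Alb, -0.22 to 0.65 for Cidec, -0.17 to 0.65 for Cyp21a1, -0.24 to 0.30 for Fgf21, -0.029 to 1.69 for Hamp2, -1.01 to 0.34 for Hsd3b5, -0.17 to 0.83 for Kbtbd11, -0.40 to 0.28 for Pdk4 and -0.85 to 0.20 for Themis. Against HF_C they ranged over -0.26 to 0.13 for Acta2, -0.25 to 0.050 for Ccnd1, -0.11 to 0.39 for Cd207, -0.036 to 0.21 for Clec4g, -0.11 to 0.11 for Dnase1l3, -0.13 to 0.29 for Fabp4, -0.85 to 0.15 for Lrtm2 and -0.039 to 0.33 for Scd2.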

Other observations

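Genes that differ between the sexes of mouse liver were uneven within the treated group. Of 14 male-biased genes, 1 was higher and 4 lower in HF_TZD_KO than in LF_C, with a median of -0.79, against 1 and 7 in HF_C. Without HF_TZD_KO 5, 8 were lower than in LF_C. The list's score was 0.28 in HF_TZD_KO 3 and 0.08 in HF_TZD_KO 5, but -1.49, -1.04 and -1.40 in HF_TZD_KO 1, 2 and 4. Mup20, a pheromone of male urine, stood at 1975 to 2132 CPM in 4 treated libraries and at 3951 CPM in HF_TZD_KO 3, and was lower than in LF_C (-0.84, adjusted p = 0.0251, edgeR; 4 of 9 fits without 1 library). Of 8 female-biased genes tested, 2 were lower, with a median of -1.65, against 5 of 7 lower in HF_C. Without LF_C 4, 1 of 9 was lower and the median was -0.58.

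Acute phase genes, which the liver raises in inflammation, had 6 of 24 higher and none lower than in LF_C, with a median of 0.10, against 9 higher and 4 lower in HF_C. Between HF_TZD_KO and HF_C, 5 of the 24 were lower and 1 was higher. Orm2, an acid glycoprotein of plasma, was higher than in LF_C by 1.01 (adjusted p = 0.00946, edgeR). It was lower than in HF_C (-1.16, adjusted p = 0.00217, edgeR). Of 18 endoplasmic reticulum stress genes, 1 was higher and 1 lower, with a median of 0.04, against 7 and 1 in HF_C. Of 5 red blood cell genes tested, none passed against LF_C in edgeR, with none higher and 1 lower at an unadjusted p under 0.05 and none called by DESeq2; the median was -0.48. In HF_C 4 of the 5 were lower. Of 8 pancreatic acinar genes 1 was tested. It did not pass against LF_C in edgeR (-0.80), was lower at an unadjusted p under 0.05 and was called lower by DESeq2.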
